A study of Mus musculus with 4 samples.

Results

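Hepatic nonparenchymal cells of 1 mouse with thioacetamide (TAA) fibrosis were compared with those of 1 control mouse. The cells were chosen by a pair of limits on every barcode: at least 200 genes detected, and at most 20% of unique molecular identifiers (UMIs, 1 per captured transcript) from mitochondrial genes. These limits kept 12300 of the 24561 cells that passed them in the study's 4 libraries, 5788 from the control mouse and 6512 from the TAA mouse. Both mice were wild type, of strain C57B6 and 18 to 20 weeks old. The TAA mouse was injected intraperitoneally with TAA for 12 weeks, and the control mouse received normal saline. The other libraries came from 2 mice given TAA for 12 weeks and celecoxib by gavage from week 5, at 7.5 mg/kg (TAA+C7.5) or 30 mg/kg (TAA+C30), and are used below only for values set beside those of the TAA mouse. Livers were dissociated with enzymes, red cells were lysed, most hepatocytes were spun out at low speed, and the remaining suspension was loaded for droplet RNA sequencing from the 3' end of transcripts. With 1 mouse a side there was no replicate check and no test. Every interval in parentheses after a fold or a share ratio is a 95% exact interval that covers counting error only, not the difference between 2 mice.

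TAA is oxidised in hepatocytes to reactive products that injure mainly the cells around the central vein, and repeated dosing leaves scar tissue that bridges between veins. The sinusoids of the healthy liver are lined by fenestrated endothelial cells, which clear macromolecules from blood and send Wnt and other signals to hepatocytes, and by Kupffer cells, the resident macrophages. In chronic injury monocytes enter and turn into macrophages, bile duct cells (cholangiocytes) multiply at the edge of the portal tracts, and stellate cells lay down collagen.

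After removal of called doublets, 5666 control and 6460 TAA cells were kept, with a median of 3357 and 4571 UMIs. Cells fell into 43 clusters, of which 33 were named from marker sets into 15 classes, written below as "-like". The names matched those from a score of each cell's markers in 91.7% of 10878 named cells, with the lowest agreement among larger classes for cDC2-like cells (75.3%) and monocyte/macrophage-like cells (79.2%), and a lower one, 11.8%, for the 76 myeloid progenitor-like cells. Unnamed cells made up 15.1% of control and 6.11% of TAA cells. Of the 853 in the control library, 609 were in 1 cluster of low depth that mixed endothelial and erythroid transcripts. The larger unnamed clusters nearest to T cell markers held 135 and 30 control cells and 48 and 148 TAA cells. An unnamed cluster nearest to NK markers held 58 control and 18 TAA cells. The largest unnamed cluster nearest to cDC2 markers, with monocyte/macrophage markers close behind, held 2 control and 88 TAA cells. These cells are not counted in the T cell-like, NK-like and cDC2-like shares below, nor among leukocytes, and their part in the leukocyte ratios was not tested. The control and TAA libraries shared 7 cell barcodes. Among the 11 classes compared gene by gene, depth per cell differed most in Kupffer-like cells, with a median of 1410.5 UMIs in control and 9385.5 in TAA, and in hepatocyte-like cells, with 1264.5 and 5042.5. Transcripts of other cell types were found in each class at levels that differed between the libraries: the summed level of 10 endothelial transcripts in T cell-like cells was 288 and 24.6 CPM in control and TAA, that of 10 erythroid transcripts in Kupffer-like cells 26195 and 1501 CPM, and that of 10 neutrophil transcripts in cholangiocyte-like cells 247 and 1962 CPM. The part of depth and of these transcripts in the differences below was not tested. Only values for cells with at least 2000 UMIs and counts for cells thinned to 1500 UMIs are given.

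The suspension from the TAA mouse held fewer endothelial-like cells, Kupffer-like cells and hepatocyte-like cells as a share of all cells, and more of the other 8 classes that had at least 50 cells in both libraries. Endothelial-like cells were 40.3% (2284 cells) and 3.79% (245 cells) of the control and TAA libraries, 10.6 times lower (9.31 to 12.2) in TAA. Hepatocyte-like cells were 2.12% (120 cells) and 0.898% (58 cells), 2.36 times lower (1.71 to 3.29), after the spin that removes most of them. Cholangiocyte-like cells were 1.5002% (85 cells) and 4.64% (300 cells), 3.096 times higher (2.43 to 3.99). The dendritic classes were each a larger share of all cells in TAA: cDC2-like cells 1.08% (61 cells) and 4.13% (267 cells), plasmacytoid dendritic (pDC)-like cells 0.9001% (51 cells) and 2.09% (135 cells) and cDC1-like cells 0.6001% (34 cells) and 1.24% (80 cells). Among leukocytes alone the TAA over control ratio was 1.86 (1.41 to 2.502) in cDC2-like cells, while those of pDC-like cells, 1.13 (0.8104 to 1.59), and cDC1-like cells, 1.001 (0.662 to 1.54), had intervals that span 1. Among smaller classes, plasma cell-like cells were 0.247% (14 cells) and 0.789% (51 cells), 3.195 times higher (1.74 to 6.25), and myeloid progenitor-like cells 0.282% (16 cells) and 0.929% (60 cells), 3.29 times higher (1.87 to 6.12). Their ratios among leukocytes alone, 1.55 (0.845 to 3.03) and 1.596 (0.907 to 2.97), had intervals that span 1. Basophil or mast cell-like cells were 0.388% (22 cells) and 0.526% (34 cells), and their ratio of 1.36 had an interval of 0.7701 to 2.43 that spans 1. All shares describe cells that survived dissociation, and shares of 1 suspension sum to 100, so that a lower endothelial share raises the others. Counted among leukocytes alone, the TAA over control ratio of B cell-like cells was 0.645 and that of NK-like cells 0.662, both below 1, against 1.33 and 1.37 among all cells.

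**Figure D1:**
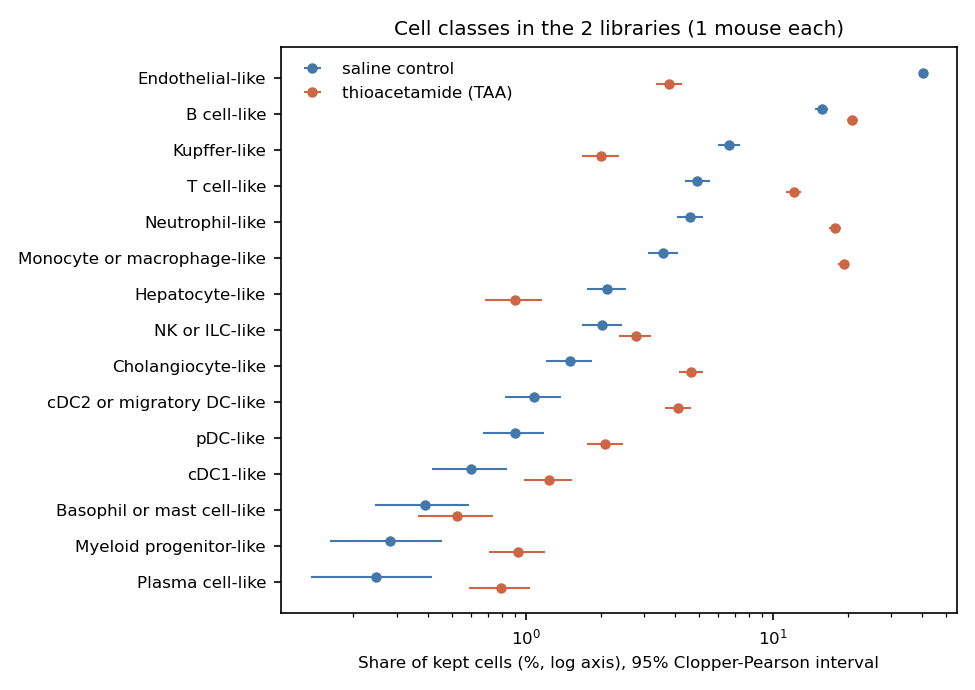
Share of kept cells in each class (percent, log axis) in the control and TAA libraries, 1 mouse each, with 95% exact binomial intervals that cover counting error only. The endothelial-like share is 40.3% in control and 3.79% in TAA, and the cholangiocyte-like share 1.5002% and 4.64%.

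Gene levels were compared class by class: UMIs were summed over the cells of a class in each library and scaled to counts per 1000000 UMIs of that sum (CPM). Pairs of CPM values below give the control library first and the TAA library second. A gene was measured in a class if it had at least 30 UMIs in the 2 libraries together, and the log2 ratio was taken after adding 10 CPM to both, which shrinks the ratio of low genes. Called genes had a log2 ratio of at least 1 in size, so each count of genes at least 2-fold higher or lower is on that scale. The share of all measured genes called in a class is the background against which its gene lists are read. It ranged from 0.15% for genes higher in B cell-like cells to 13.2% for genes higher in hepatocyte-like cells. A trimmed-mean scaling factor, used instead of the plain total, shifted all log2 ratios by 0.11 to 0.15 in B cell-like, cholangiocyte-like, monocyte/macrophage-like, NK-like and cDC2-like cells and by -0.15 in hepatocyte-like cells, and the counts of called genes under it are given for these 6 classes.

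**Figure D2:**
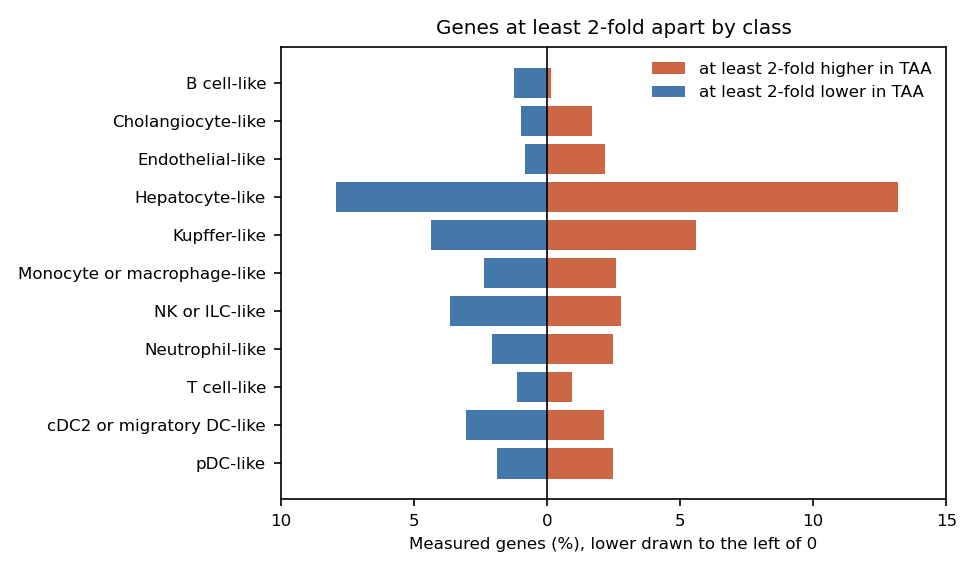
Percent of measured genes at least 2-fold higher and at least 2-fold lower in the TAA library than in the control library, for the 11 classes with at least 50 cells in both. Hepatocyte-like cells have the highest percents (13.2% higher and 7.93% lower) and B cell-like cells the lowest percent higher (0.15%).

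Interferon-induced transcripts were higher in TAA in many classes. Isg15, a ubiquitin-like protein induced by interferon, was at least 2-fold higher in 7 of the 8 classes in which it passed the limits on level. These limits are used for every count of classes below. They were 30 UMIs in the 2 libraries together and, in the higher library, at least 10% of the level in any other class. A class counted as higher or lower only if the gene also reached 50 CPM in the higher library. The Isg15 level was 112 and 803 CPM in neutrophil-like cells, 7.19-fold higher (5.75 to 9.12). It was 20.02 and 179.8 CPM in endothelial-like cells, 8.98-fold higher (7.72 to 10.5), and 12.2 and 108 CPM in pDC-like cells, 8.82-fold higher (3.69 to 27.6). In T cell-like cells Isg15 stood at 43.6 and 122 CPM, and in cDC2-like cells, the class of the 8 that was not called, at 60.3 and 121 CPM. Ifi27l2a, another interferon-induced gene, was at least 2-fold higher in 7 of 8 classes, with 335 and 1672 CPM in neutrophil-like, 345 and 1251 CPM in Kupffer-like and 219.9 and 916 CPM in cDC2-like cells. In neutrophil-like cells the Isg15 level was 112 CPM in control, 803 in TAA, 342 in TAA+C7.5 and 286 in TAA+C30, highest in the TAA library.

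The type I interferon list has 25 genes. Neutrophil-like cells had 12 of the 22 measured of 25 members at least 2-fold higher, 0 at least 2-fold lower and a median log2 ratio of 1.27, and monocyte/macrophage-like cells 16 of the 25 members at least 2-fold higher, 0 at least 2-fold lower and a median log2 ratio of 1.23. Of these members Ifit3, which limits viral RNA translation, was 9.89 and 104 CPM in neutrophil-like cells, 10.6-fold higher (5.06 to 26.5), and 21.6 and 133 CPM in monocyte/macrophage-like cells, 6.18-fold higher (4.23 to 9.41). Reads of Ifit3 and its near copy Ifit3b may be split between them. Endothelial-like cells had 9 of the 22 measured of 25 members at least 2-fold higher, 0 at least 2-fold lower and a median log2 ratio of 0.96, and Kupffer-like cells 10 of the 24 measured of 25 members at least 2-fold higher, 0 at least 2-fold lower and a median log2 ratio of 0.82. NK-like cells had 5 of the 9 measured of 25 members at least 2-fold higher, 0 at least 2-fold lower and a median log2 ratio of 1.14, cDC2-like cells 7 of 22 higher and a median of 0.69, and pDC-like cells 6 of 13 and 0.95. In B cell-like and T cell-like cells the list stood near the level of all genes, with medians of 0.088 and 0.065 and 0 and 2 members at least 2-fold higher. The list of interferon-gamma responses and GTPases had fewer members called in neutrophil-like, endothelial-like and monocyte/macrophage-like cells. It had 5 of 11 measured, 5 of 19 and 1 of 20 members at least 2-fold higher, and 2 at least 2-fold lower in monocyte/macrophage-like cells. Its chemokine Cxcl10, which draws CXCR3-bearing T and NK cells, was 247 and 1449 CPM in endothelial-like cells, 5.88-fold higher (5.61 to 6.15), and 69.8 and 326 CPM in Kupffer-like cells. Cxcl9, a ligand of the same receptor, went opposite ways in 2 classes: it was 145 and 513 CPM in endothelial-like cells, 3.54-fold higher (3.31 to 3.78), and 233 and 58.3 CPM in monocyte/macrophage-like cells, 3.99-fold lower (3.47 to 4.57).

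Promoters are shown for Isg15 and Ifit3, members of the interferon list called in several classes, and for Gpnmb. Of the genes described below in monocyte/macrophage-like cells, Gpnmb had the largest log2 ratio. Each promoter runs 5' to 3' on the gene's own strand from 250 bases before to 50 bases after the RefSeq start on build GRCm38.p6. Capitals mark matches to GAAANNGAA, an interferon response core, or TTCNNGAA, a heat shock element, searched on both strands.
Isg15, minus strand, chr4:156200769-156201068: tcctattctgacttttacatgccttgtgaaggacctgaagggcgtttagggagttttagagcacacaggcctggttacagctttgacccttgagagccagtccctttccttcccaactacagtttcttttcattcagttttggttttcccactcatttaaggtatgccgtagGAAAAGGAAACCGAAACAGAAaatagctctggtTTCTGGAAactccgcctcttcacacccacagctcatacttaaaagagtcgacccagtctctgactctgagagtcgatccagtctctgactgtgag
Ifit3, plus strand, chr19:34583279-34583578: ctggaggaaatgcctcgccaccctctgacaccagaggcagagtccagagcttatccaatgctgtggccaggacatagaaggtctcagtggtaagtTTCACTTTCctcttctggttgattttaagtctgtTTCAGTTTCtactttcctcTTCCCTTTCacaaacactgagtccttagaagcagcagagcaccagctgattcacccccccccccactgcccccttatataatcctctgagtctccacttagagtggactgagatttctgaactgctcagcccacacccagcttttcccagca
Gpnmb, plus strand, chr6:49036268-49036567: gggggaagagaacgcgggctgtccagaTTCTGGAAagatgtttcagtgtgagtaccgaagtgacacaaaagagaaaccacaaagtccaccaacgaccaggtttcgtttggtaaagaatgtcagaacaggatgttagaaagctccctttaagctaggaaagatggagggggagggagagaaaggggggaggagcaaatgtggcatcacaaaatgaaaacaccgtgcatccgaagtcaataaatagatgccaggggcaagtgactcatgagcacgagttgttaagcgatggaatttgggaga
The Isg15 promoter held 3 overlapping interferon cores and 1 heat shock element, the Ifit3 promoter 3 cores read on the opposite strand, and the Gpnmb promoter 1 heat shock element. Of 27025 promoters of this length, 8.57% held GAAANNGAA and 8.40% held TTCNNGAA. The interferon core was in 12 of the 17 promoters matched by symbol for the 25 interferon list members. For the 20 heat shock genes, 16 promoters were matched and 3 held the heat shock element. The lysosomal E-box TCACGTGA was in 1.01% of all promoters and in 1 of 19 matched promoters of the 26 lysosomal genes. Oasl1 and Trem2, searched by the same rule, held none of the 3 motifs in this window.

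Other genes were higher in several classes at once. Ly6a (Sca-1), a lipid-anchored surface protein, was at least 2-fold higher in 6 of 7 classes, with 90.3 and 699.6 CPM in monocyte/macrophage-like cells, 7.74-fold higher (6.43 to 9.41), 71.7 and 531 CPM in cDC2-like cells and 81.2 and 619.7 CPM in Kupffer-like cells. Hilpda, a lipid droplet protein induced by hypoxia that blocks triglyceride breakdown, was higher in 6 of 7 classes, with 23.8 and 249 CPM in NK-like cells, 10.5-fold higher (5.74 to 21.2), 62.2 and 286 CPM in Kupffer-like cells and 55.1 and 215 CPM in neutrophil-like cells. Of the other members of the hypoxia and glycolysis list none was called in neutrophil-like and T cell-like cells, where 22 were measured in each. The whole list had 3 of the 20 measured of 24 members at least 2-fold higher, 0 at least 2-fold lower and a median log2 ratio of 0.28 in NK-like cells, and 3 of the 20 measured of 24 members at least 2-fold higher, 0 at least 2-fold lower and a median log2 ratio of 0.59 in Kupffer-like cells. Id1, an inhibitor of helix-loop-helix factors and a target of bone morphogenetic proteins, was higher in 5 of 7 classes, with 28.3 and 184 CPM in hepatocyte-like and 284 and 599 CPM in cholangiocyte-like cells. Odc1, which makes putrescine for polyamine synthesis, was higher in 5 of 11 classes, with 104 and 459 CPM in NK-like and 34.5 and 136 CPM in endothelial-like cells. Under the same limits, 65 genes were at least 2-fold higher in at least 3 of the 11 classes and 29 at least 2-fold lower, and 61 genes were called in both directions in different classes. Classes of 1 library share its source and are not replicates of each other.

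Among genes lower in several classes were inducible heat shock genes and a glucocorticoid-induced gene. Hsph1, a nucleotide exchange factor of the Hsp70 chaperone, was at least 2-fold lower in 6 of 10 classes, with 182 and 50.6 CPM in B cell-like, 291 and 104 CPM in T cell-like and 349 and 111 CPM in NK-like cells. Hspa1b, an inducible Hsp70 nearly identical to Hspa1a, was lower in 6 of 10 classes, with 458 and 68.9 CPM in B cell-like cells, 6.66-fold lower (5.91 to 7.52), and higher in 1, hepatocyte-like cells, with 67.2 and 174 CPM. Hspa1b and Hspa1a lead a B cell-like cluster of 79 control and 38 TAA cells, and with clusters at the same weight in both libraries the log2 ratio of Hspa1b in B cell-like cells was -1.24 in place of -2.57. Set beside the celecoxib libraries, Hspa1b in B cell-like cells was 458 CPM in control, 68.9 in TAA, 295 in TAA+C7.5 and 398 in TAA+C30, lowest in TAA. Tsc22d3 (GILZ), induced by glucocorticoids, was lower in 5 of 11 classes, with 166 and 22.5 CPM in hepatocyte-like, 303 and 76.99 CPM in cDC2-like and 373 and 105 CPM in neutrophil-like cells. Cxcr4, the receptor for CXCL12, was lower in 5 of 8 classes, with 1391 and 335 CPM in B cell-like cells, and higher in Kupffer-like cells, with 71.03 and 193 CPM. The share of UMIs from mitochondrial genes was also lower in TAA in the 11 classes, with 6.77% and 4.72% in B cell-like, 6.11% and 1.702% in neutrophil-like and 7.45% and 3.03% in Kupffer-like cells; its part in the levels of these stress genes was not tested. The transcript counted under the microRNA gene Mir6236, which is not the mature microRNA, was lower in 7 of 11 classes, with 209 and 49.5 CPM in hepatocyte-like and 222 and 92.9 CPM in B cell-like cells. Slc15a2, a peptide transporter, was lower in 4 of 7 classes. Of the other classes, all under 50 CPM, endothelial-like cells had 263 and 0 UMIs and monocyte/macrophage-like cells 41 and 0 UMIs. Cholangiocyte-like cells had 41.6 and 34.0 CPM. In B cell-like cells Slc15a2 was 97.99 CPM in control, 0.201 in TAA, 84.6 in TAA+C7.5 and 66.7 in TAA+C30, so the TAA library stood apart from the control and from both celecoxib libraries.

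**Figure D3:**
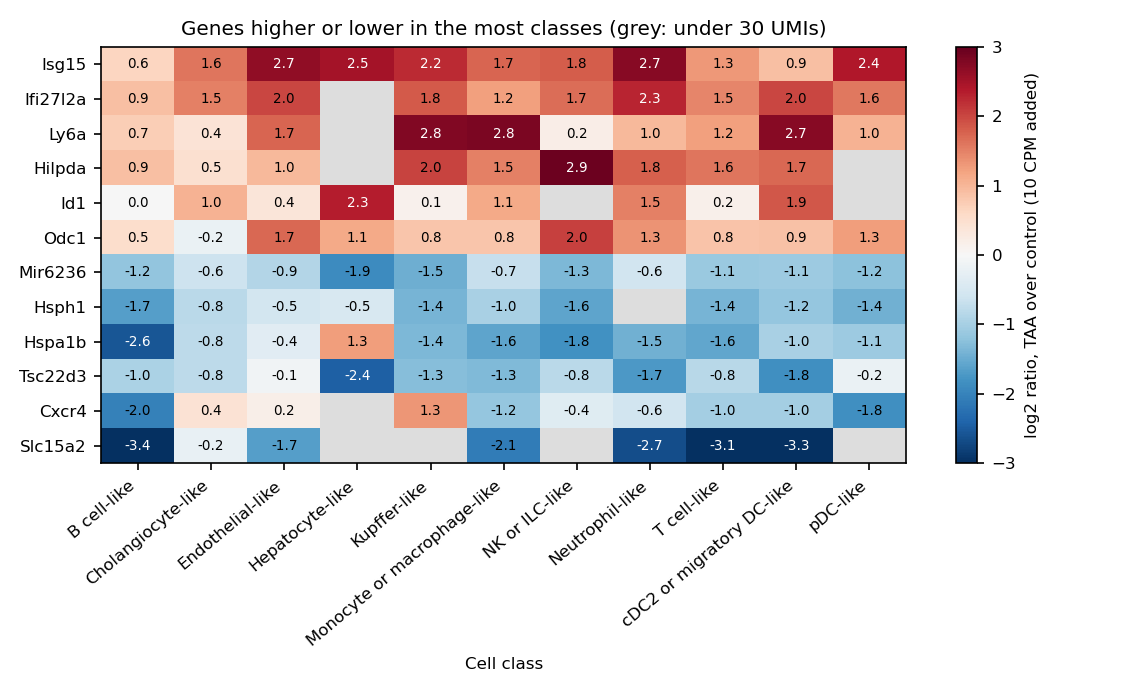
Log2 ratio of TAA over control, after adding 10 CPM, for the 6 genes at least 2-fold higher and the 6 at least 2-fold lower in the most classes (rows), in each of the 11 classes (columns), grey where a class had under 30 UMIs of the gene. Values outside the limits on level are drawn too; among classes within them Isg15 and Ifi27l2a are higher in 7 of 8 each, and Hspa1b is lower in 6 of 10 and higher in hepatocyte-like cells.

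**Figure D4:**
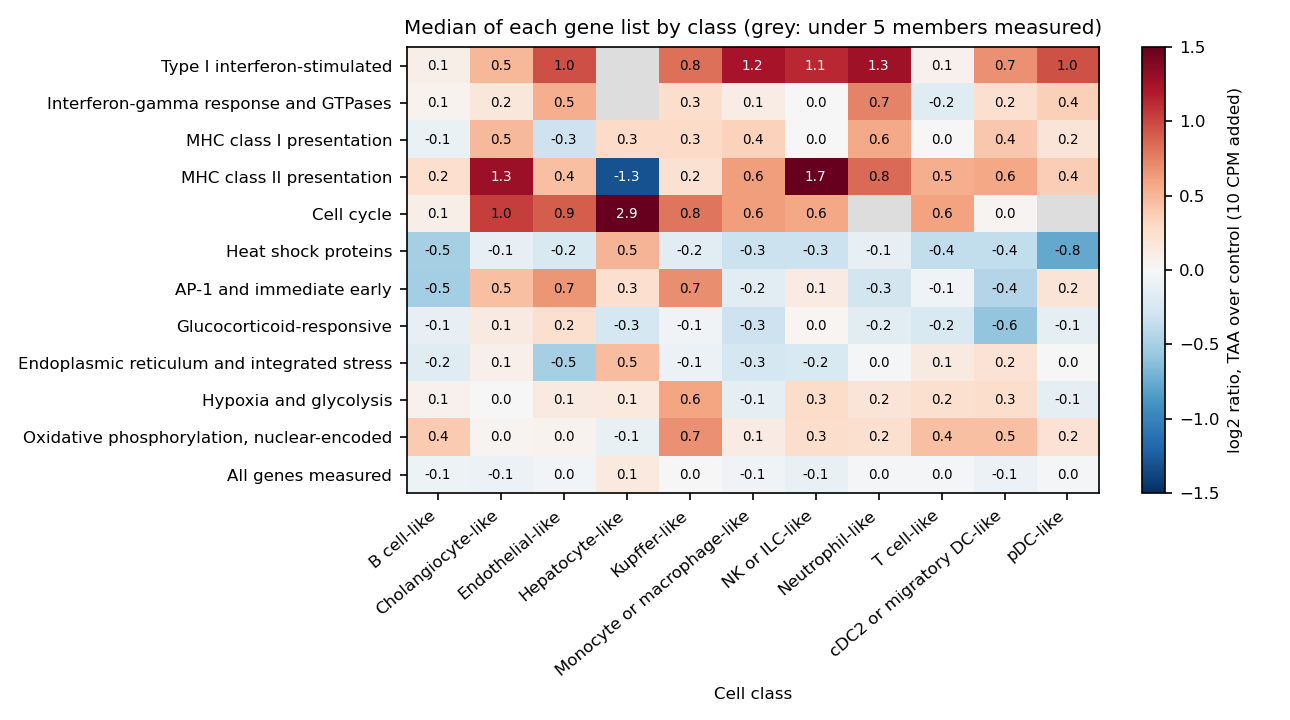
Median log2 ratio of TAA over control of 11 gene lists and of all genes measured (rows) in each class (columns) in which at least 5 members were measured, after adding 10 CPM. The cell cycle list in hepatocyte-like cells has a median of 2.93, and the type I interferon list is above 0.5 in 8 classes.

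In cholangiocyte-like cells (85 control and 300 TAA cells, all in 1 cluster) duct identity genes were not called, while injury, proliferation and some imprinted transcripts were higher in TAA. Over all genes 193 of 11500 genes (1.68%) were at least 2-fold higher in the TAA library and 110 (0.957%) at least 2-fold lower; with trimmed-mean scaling the counts were 235 higher and 77 lower. The 20 identity genes, such as keratins and the epithelial adhesion protein Epcam, had 0 called in either direction and a median of -0.19, with Epcam at 854 and 1131 CPM and Krt18 at 1053 and 1748 CPM. Epcam and other duct markers also named the class, so similar levels of identity genes follow in part from how its cells were chosen. Meg3, a maternally expressed noncoding RNA of the imprinted Dlk1-Dio3 region, had 0 and 8701 UMIs, or 0 and 1599.9 CPM, at least 589.6-fold higher taking 3 UMIs as the limit for a count of 0. Rian, a noncoding RNA of the same region, had 0 and 845 UMIs and was at least 57.3-fold higher. In the TAA+C7.5 and TAA+C30 libraries Meg3 stood at 728 and 402 CPM in this class, so transcripts were detected in each of the 3 TAA-treated mice and not in the control library at this depth. Meg3 and Mmp7 are among the leading genes of this cluster, which was formed from cells of all 4 libraries. Peg3, a paternally expressed gene of another imprinted region, was 101 and 6.99 CPM, 14.5-fold lower (9.95 to 21.5).

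Hamp, the iron hormone hepcidin normally made by hepatocytes, was 7.24 and 553 CPM in cholangiocyte-like cells, 76.5-fold higher (38.8 to 177). Wfdc18, a small secreted protein with a whey acidic protein fold, had 0 and 635 UMIs and was at least 43.03-fold higher. The summed level of 20 hepatocyte transcripts in these cells was 10617 and 11744 CPM. Of the ductular reaction and injury list, 19 of 23 members were measured, 7 were at least 2-fold higher and 0 lower, with a median of 0.65. Its largest differences were Mmp7, a protease that cleaves matrix and surface proteins, at 42.5 and 1192 CPM, 28.03-fold higher (21.1 to 38.2), Lcn2, which binds bacterial siderophores, and Vcam1, an adhesion molecule for leukocytes. Lcn2 was 218 and 1489.7 CPM, 6.83-fold higher (6.01 to 7.801). Vcam1 was 42.5 and 289 CPM, 6.81-fold higher (5.09 to 9.31). Other members differed less: Clu was 15602 and 21021 CPM, Prom1 233 and 201 CPM and Ccn2 299 and 295 CPM, and none of these 3 was called. Lcn2 is also a neutrophil transcript, and the summed level of 10 neutrophil transcripts in these cells was 247 and 1962 CPM; their part in the Lcn2 value was not tested.

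Proliferation genes in cholangiocyte-like cells had 12 of the 23 measured of 24 members at least 2-fold higher, 0 at least 2-fold lower and a median log2 ratio of 1.03. Cenpf, a kinetochore protein, was 0.904 and 46.3 CPM, and Mki67, which coats mitotic chromosomes, 2.71 and 43.4 CPM, the latter under 10% of its level in another class of the library. C4b, a complement component, was 14.5 and 122 CPM, 8.46-fold higher (5.17 to 14.9), and C3 was 831 and 1449 CPM. MHC class II genes had 6 of the 10 measured of 16 members at least 2-fold higher, 0 at least 2-fold lower and a median log2 ratio of 1.29, with Cd74, the invariant chain, at 178 and 1086 CPM, 6.09-fold higher (5.29 to 7.06); the class II levels were under 10% of those in another class of the TAA library. Lower genes beside Peg3 were C2cd4b, at 231 and 15.6 CPM, 14.8-fold lower (11.5 to 19.1), Slc45a3, at 103 and 18.02 CPM, and the fatty acid receptor Cd36, at 58.8 and 10.3 CPM.

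**Figure D5:**
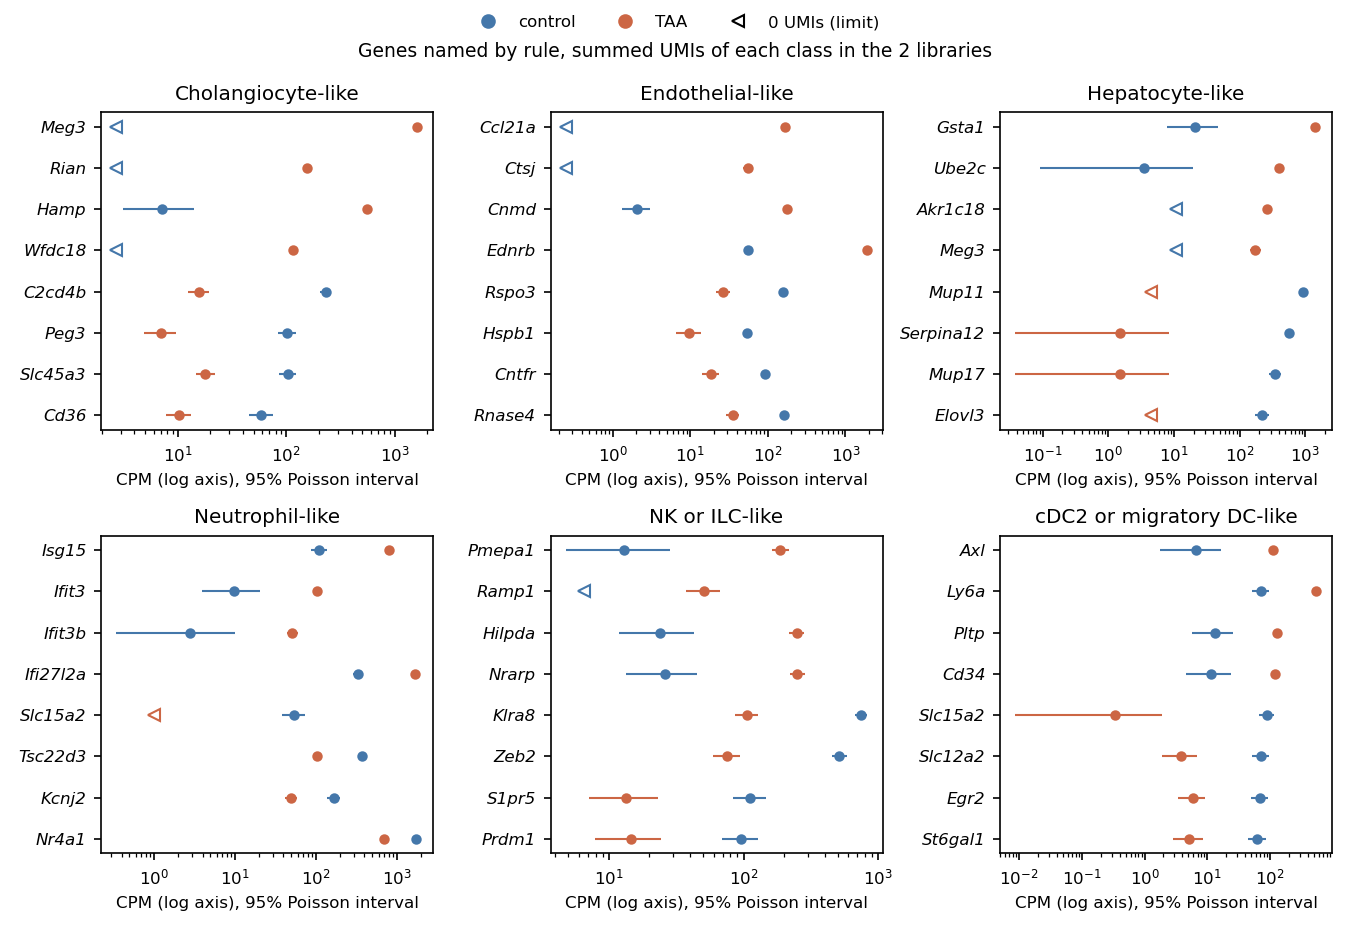
CPM (log axis) in the control and TAA libraries for the genes named by rule in 6 of the 11 classes, 4 higher and 4 lower in each, with 95% Poisson intervals; open triangles stand at the limit for a count of 0. Meg3 in cholangiocyte-like cells goes from 0 to 1599.9 CPM, and Mup11 in hepatocyte-like cells from 937 to 0.

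Hepatocyte-like cells (120 control and 58 TAA cells) had passed the low-speed spin. In them the cell cycle genes were higher and some secretory and metabolic genes were lower. The list of 20 hepatocyte transcripts, such as Alb and Ttr, had 1 member at least 2-fold higher and 2 at least 2-fold lower. Its median log2 ratio was 0.16, against 0.15 over all genes, and it summed to 100383 and 94601 CPM. Over all genes 554 of 4197 genes (13.2%) were at least 2-fold higher in the TAA library and 333 (7.93%) at least 2-fold lower; with trimmed-mean scaling the counts were 430 higher and 432 lower. All 19 measured of 24 cell cycle genes were at least 2-fold higher, with a median log2 ratio of 2.93 and a summed level of 626 and 4458 CPM. Genes were admitted by UMIs of both libraries together, and this class held 282776 UMIs in control and 666725 in TAA. Of the 24 members, 5 had 0 UMIs in control. A member high in TAA was thus admitted more readily than one high in control, which favours higher genes in the count of 19. The part of this rule in the count and the median was not tested. Ube2c, the ubiquitin carrier of the anaphase-promoting complex, had 1 and 267 UMIs, 113-fold higher (20.2 to 4489), and Cdk1, the kinase of entry into mitosis, was 3.54 and 225 CPM, 63.6-fold higher (11.2 to 2529). The median share of mitochondrial UMIs per cell was 6.91% and 0.654% in hepatocyte-like cells, and its part in these differences was not tested. In the 34 control and 44 TAA hepatocyte-like cells with at least 2000 UMIs, a limit chosen after seeing the depths, the cell cycle median was 2.87. Meg3 had 0 and 116 UMIs and was at least 16.4-fold higher; taken as a mean over cells its log2 ratio was 2.86 in place of 4.20.

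Glutathione and stress genes in hepatocyte-like cells differed in both directions. Gsta1, a glutathione transferase, was 21.2 and 1417 CPM, 66.8-fold higher (30.6 to 182), and Akr1c18, an aldo-keto reductase, had 0 and 177 UMIs and was at least 25.02-fold higher. The metallothionein and antioxidant list had 7 of the 19 measured of 20 members at least 2-fold higher, 2 at least 2-fold lower and a median log2 ratio of 0.88: Mt1, which binds zinc, was 134 and 1776 CPM, 13.2-fold higher (9.57 to 18.8), Nqo1, a quinone reductase and target of NRF2, 7.07 and 52.5 CPM, and Gpx1, which reduces peroxides with glutathione, 2758 and 1229.9 CPM, 2.24-fold lower (2.03 to 2.48). Heat shock genes had 5 of the 18 measured of 20 members at least 2-fold higher, 1 at least 2-fold lower and a median log2 ratio of 0.51 here, with Hspa1a at 10.6 and 126 CPM. Of the glucocorticoid-responsive list 3 members were higher, Mt1, Mt2 and Cdkn1a, the last an inhibitor of cyclin-dependent kinases at 10.6 and 103 CPM, and 3 lower, Tsc22d3, Klf9 at 269 and 70.5 CPM and Errfi1 at 835 and 264 CPM. Mup11 and Mup17, major urinary proteins of a family with nearly identical copies, had 265 and 0 UMIs and 98 and 1 UMIs. Mup11 was at least 208-fold lower. Serpina12 (vaspin) had 163 and 1 UMIs, 384-fold lower (68.02 to 15272), and Elovl3, a fatty acid elongase, had 63 and 0 UMIs, at least 49.5-fold lower.

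Endothelial-like cells differed in composition as well as in level: 2199 of the 2284 control cells were in 2 clusters that held 22 of the 245 TAA cells, while 223 TAA cells were in a further cluster with 85 control cells, called the shared cluster below. Values over the whole class therefore compare largely different clusters. Over the whole class 265 of 12177 genes (2.18%) were at least 2-fold higher in the TAA library and 102 (0.838%) at least 2-fold lower. Ednrb, an endothelin receptor, was 55.1 and 1873 CPM, 33.97-fold higher (31.4 to 36.8); within the shared cluster its log2 ratio was 1.10 in place of 4.85. Cnmd (chondromodulin), an inhibitor of vessel growth, was 2.05 and 174 CPM, with a log2 ratio of 3.02 within the shared cluster in place of 3.93, and Selp, the P-selectin that slows leukocytes on the vessel wall, 25.9 and 389.9 CPM. These 3 are among the genes that set the shared cluster apart and describe it. Ccl21a, a chemokine for CCR7-bearing cells with nearly identical copies in the genome, had 0 and 545 UMIs and was at least 669-fold higher; with classes from marker scores its log2 ratio was 2.17 in place of 4.13. Ctsj, a cathepsin, had 0 and 183 UMIs, at least 225-fold higher. Rspo3, which amplifies Wnt signals to hepatocytes around the central vein, was 155 and 26.6 CPM, 5.81-fold lower (4.69 to 7.28). Hspb1, a small heat shock protein, was 53.9 and 9.67 CPM, Rnase4, a secreted ribonuclease, 161 and 35.1 CPM, and Cntfr, a cytokine receptor subunit, 92.2 and 18.4 CPM; the log2 ratio of Hspb1 was -1.70 and within the shared cluster -2.48, and that of Cntfr -1.84 and -0.41.

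Within the shared cluster, which compares 85 control with 223 TAA cells, 313 of 9518 genes (3.29%) were at least 2-fold higher in TAA and 429 (4.51%) at least 2-fold lower. The cluster was not split further, and its mix of venous and sinusoidal endothelial cells may differ between the libraries. The part of that mix in the values below was not tested. Angiocrine factors had 2 of 16 measured members at least 2-fold higher, 6 at least 2-fold lower and a median log2 ratio of 0.067. Among them Rspo3 was 1032 and 27.7 CPM, 37.3-fold lower (29.8 to 47.2). Wnt9b, a Wnt ligand of the central vein, was 180.1 and 27.7 CPM, 6.504-fold lower (4.86 to 8.72). Edn1, the vasoconstrictor endothelin, was 165 and 26.4 CPM, and Vwf, the platelet-binding factor of larger vessels, 670.5 and 89.1 CPM, 7.53-fold lower (6.45 to 8.796). Cxcl12, the ligand of CXCR4, was 244 and 4.09 CPM, 59.5-fold lower (33.7 to 114). Sinusoidal receptors had 5 of 18 measured members at least 2-fold higher, 2 at least 2-fold lower and a median log2 ratio of 0.72, against a median of -0.33 over the whole class. Lyve1, a hyaluronan receptor, was 113 and 628 CPM, 5.54-fold higher (4.35 to 7.16). Chemokines had 6 of 12 measured members at least 2-fold higher, 3 at least 2-fold lower and a median log2 ratio of 0.83, with Cxcl9 at 53.4 and 525 CPM and Cxcl10 at 282 and 1506 CPM. Esm1, a marker of sprouting tip cells, was 0 and 191 CPM, and Hgf, a growth factor for hepatocytes, 48.4 and 269 CPM, 5.56-fold higher (3.85 to 8.36). Type I interferon genes had 8 of 22 measured members at least 2-fold higher, 0 at least 2-fold lower and a median log2 ratio of 0.64. The interferon-gamma and GTPase list had 7 of 17 measured members at least 2-fold higher, 0 lower and a median of 0.61. The cell cycle list changed direction: over the whole class it had 10 of the 24 members at least 2-fold higher, 0 at least 2-fold lower and a median log2 ratio of 0.91, and within the shared cluster 0 of 24 measured members at least 2-fold higher, 17 at least 2-fold lower and a median log2 ratio of -1.34. The immediate early list was 0.66 over the whole class and 0.19 within the shared cluster.

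Kupffer-like cells (376 control and 130 TAA cells, 1 cluster) combined lower levels of some resident genes with higher levels of lipid-associated and inflammatory genes. Over all genes 410 of 7302 genes (5.61%) were at least 2-fold higher in the TAA library and 317 (4.34%) at least 2-fold lower. The hemoglobin scavenger receptor Cd163 was 506 and 48.5 CPM, 10.4-fold lower (8.05 to 13.7). Timd4, a receptor for dying cells and a mark of long-resident Kupffer cells, was 364 and 106 CPM, and the complement protein gene C6 997 and 350.0 CPM. The resident genes differed among themselves: Cd5l was 5454 and 6784 CPM and Marco 409.7 and 655 CPM, neither called. The Kupffer identity list had 0 of its 17 members at least 2-fold higher and 4 at least 2-fold lower. Its median log2 ratio was -0.42, and -0.93 with classes from marker scores. Hmox1, which degrades heme, was 2596 and 929 CPM, 2.79-fold lower (2.605 to 2.998), beside erythroid transcripts that summed to 26195 and 1501 CPM. The lipid-associated and scar-associated list had 13 of the 19 measured of 20 members at least 2-fold higher, 0 at least 2-fold lower and a median log2 ratio of 1.10, with Mmp12, macrophage elastase, at 17.8 and 485 CPM, Gpnmb, a lysosomal glycoprotein, at 2.54 and 129 CPM, Cd63 at 5.07 and 97.6 CPM and Trem2, a lipid-sensing receptor, at 19.03 and 221 CPM. The interleukin-1 and inflammasome list had 9 of the 17 measured of 21 members at least 2-fold higher, 0 at least 2-fold lower and a median log2 ratio of 1.07: Tnf was 54.5 and 249 CPM, 4.57-fold higher (3.32 to 6.44), Il1a 68.5 and 282 CPM, and Il1b 440.1 and 1234 CPM. Cxcl2, which draws neutrophils, was 251 and 1530.2 CPM, 6.09-fold higher (5.26 to 7.08). Nuclear-encoded respiratory chain genes had 4 of the 25 members at least 2-fold higher, 0 at least 2-fold lower and a median log2 ratio of 0.69. Lower named genes were Gimap4 at 68.5 and 2.17 CPM, Igfbp4, which binds insulin-like growth factors, at 174 and 11.6 CPM, and Tcim at 68.5 and 2.89 CPM; endothelial transcripts in this class summed to 2394 and 592 CPM. In the 119 control and 112 TAA cells with at least 2000 UMIs the scar-associated median was 1.23 and the interleukin-1 median 1.05. With classes from marker scores the log2 ratios of Gpnmb, Cd63 and Trem2 were 5.04, 4.20 and 3.82, in place of 3.48, 2.84 and 2.99.

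Monocyte/macrophage-like cells (203 control and 1247 TAA cells) held 3 clusters with 30, 80 and 93 control cells and 647, 456 and 144 TAA cells. The first had Gpnmb among its leading genes. Over all genes 292 of 11178 genes (2.61%) were at least 2-fold higher in the TAA library and 263 (2.35%) at least 2-fold lower; with trimmed-mean scaling the counts were 345 higher and 201 lower. With each cluster given the same weight in both libraries, 271 genes were called in place of 555. Gpnmb was 3.198 and 439.5 CPM, 137-fold higher (53.6 to 505), a level that describes the first cluster; with common cluster weights its log2 ratio was 4.73 in place of 5.09. Il18bp, a decoy that binds interleukin-18, was 3.997 and 138 CPM, 34.5-fold higher (14.7 to 106), with 2.50 under common weights. Among genes of TGF-beta signalling Pmepa1, a feedback inhibitor, was 8.79 and 114 CPM, 12.98-fold higher (7.23 to 26.1), while the list median was 0.63 and 0.054 under common weights. Lysosomal genes had 10 of the 25 measured of 26 members at least 2-fold higher, 0 at least 2-fold lower and a median log2 ratio of 0.84, with the protease Ctsd at 238 and 2291 CPM, and a median of 0.54 under common weights. MHC class II genes changed direction, with a median of 0.63 and of -0.19 under common weights. Ccdc88c was 225 and 36.1 CPM, with a log2 ratio of -1.05 under common weights in place of -2.35. Flt1, a VEGF receptor, was 122 and 20.7 CPM, 5.92-fold lower (4.82 to 7.24), with a log2 ratio of -1.37 under marker-score classes in place of -2.11. Endothelial transcripts in this class summed to 405 and 99.0 CPM, and their part in the Flt1 value was not tested. The chemokines Ccl17 and Ccl24, ligands of CCR4 and CCR3, were 66.4 and 0.765 CPM and 102 and 7.27 CPM, but when classes were assigned by marker score the log2 ratio of Ccl17 was 0.061 in place of -2.83 and that of Ccl24 -0.82 in place of -2.69. Ptgs1, a cyclooxygenase, was 52.8 and 146 CPM, and its log2 ratio of 1.31 was -0.081 under common weights.

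Neutrophil-like cells (262 control and 1147 TAA cells) had higher interferon and immature granule transcripts in TAA. Over all genes 152 of 6096 genes (2.49%) were at least 2-fold higher in the TAA library and 127 (2.08%) at least 2-fold lower. Granule genes of immature neutrophils had 7 of the 13 measured of 18 members at least 2-fold higher, 0 at least 2-fold lower and a median log2 ratio of 1.12. Camp, the antimicrobial cathelicidin, was 408 and 1872 CPM, 4.58-fold higher (4.07 to 5.18), Ltf, lactoferrin, 216 and 641 CPM, and Ly6g, the surface antigen of the Gr-1 epitope, 45.2 and 175 CPM. One cluster held 261 control and 1091 TAA cells and another 1 and 56; in the first alone the granule median was 0.47. Genes of mature neutrophils had 1 of the 21 members at least 2-fold higher, 0 at least 2-fold lower and a median log2 ratio of -0.29; Siglecf, a sialic acid receptor, was 15.5 and 68.3 CPM and Retnlg 4059.8 and 8059 CPM. The guanylate-binding and GTPase genes of the interferon-gamma list included Igtp at 4.24 and 28.05 CPM and Gbp7 at 16.96 and 55.4 CPM. Lower genes were Tsc22d3 at 373 and 105 CPM, 3.54-fold lower (2.99 to 4.18), and the potassium channel Kcnj2 at 168 and 49.7 CPM, 3.39-fold lower (2.64 to 4.34). Nr4a1, an orphan nuclear receptor induced early after stimulation, was 1737 and 692 CPM, 2.51-fold lower (2.34 to 2.696). The chemokine Ccl4 was 4054 and 1858 CPM and Ptgs2, the inducible cyclooxygenase, 1969.9 and 1243 CPM, a log2 ratio of -0.66 that was not called.

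In cDC2-like cells, which include migratory dendritic cells (61 control and 267 TAA cells in 4 clusters, with 32, 13, 12 and 4 control and 109, 41, 95 and 22 TAA cells), immediate early genes were lower and a receptor for dying cells and a chemokine receptor were higher. Over all genes 164 of 7703 genes (2.13%) were at least 2-fold higher in the TAA library and 235 (3.05%) at least 2-fold lower; with trimmed-mean scaling the counts were 208 higher and 168 lower. Axl, a receptor kinase that binds dying cells through GAS6, was 6.52 and 113 CPM, 17.3-fold higher (6.68 to 63.8); with classes from marker scores its log2 ratio was 1.17 in place of 2.89. Pltp, a phospholipid transfer protein, was 13.03 and 130.0 CPM, 9.98-fold higher (5.01 to 23.3). Cd34, a sialomucin of progenitor and endothelial cells, was 11.4 and 118 CPM, 10.4-fold higher (4.97 to 25.9). Its log2 ratio was 2.58, and 1.93 within the cluster of 32 control and 109 TAA cells. No other cluster of the class had at least 20 cells in both libraries. Pmepa1 was 17.9 and 157 CPM, 8.75-fold higher (4.84 to 17.6), and the chemokine receptor Ccr1 22.8 and 155 CPM. The immediate early list had 0 of the 21 members at least 2-fold higher, 7 at least 2-fold lower and a median log2 ratio of -0.44: Egr2 and Egr3, zinc finger factors induced by receptor signals, were 68.4 and 5.82 CPM and 116 and 14.4 CPM, and Nr4a2 889 and 344 CPM. Slc12a2, a sodium, potassium and chloride cotransporter, was 71.7 and 3.76 CPM, 19.04-fold lower (9.68 to 40.9). St6gal1, a sialyltransferase, was 61.9 and 5.13 CPM, 12.1-fold lower (6.48 to 23.6), and Slc15a2 89.6 and 0.342 CPM. Ptgs2 was 699 and 240.2 CPM, 2.91-fold lower (2.57 to 3.29). Glucocorticoid-responsive genes had 0 of the 19 measured of 20 members at least 2-fold higher, 3 at least 2-fold lower and a median log2 ratio of -0.59, among them Ddit4, an inhibitor of mTORC1, at 199 and 34.9 CPM. MHC class II genes had 2 of the 16 members at least 2-fold higher, 0 at least 2-fold lower and a median log2 ratio of 0.58, with H2-Eb1 at 7140.4 and 12452 CPM.

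In pDC-like cells (51 control and 135 TAA cells, 1 cluster) interferon-induced genes were higher and heat shock genes were lower. Over all genes 159 of 6444 genes (2.47%) were at least 2-fold higher in the TAA library and 120 (1.86%) at least 2-fold lower. Xaf1, an interferon-induced promoter of cell death, was 4.88 and 41.3 CPM and Spsb1, a subunit of ubiquitin ligases, 9.75 and 89.6 CPM, 9.19-fold higher (3.49 to 34.3). Id3, an inhibitor of helix-loop-helix factors, was 63.4 and 291 CPM, 4.58-fold higher (3.08 to 7.11). Nr4a3 had 0 and 85 UMIs, at least 9.05-fold higher, but when cells were assigned by marker score its log2 ratio was 0.25 in place of 2.93. Heat shock genes had 0 of the 16 measured of 20 members at least 2-fold higher, 5 at least 2-fold lower and a median log2 ratio of -0.76, with the Hsp40 co-chaperone Dnaja1 at 319 and 140.3 CPM. Hmgcs1, an early enzyme of cholesterol synthesis, was 232 and 59.998 CPM, 3.86-fold lower (2.83 to 5.28). Cxcr4 was 475 and 126 CPM and Myb, a factor of early blood cells, 117 and 28.8 CPM, 4.06-fold lower (2.59 to 6.41). Ccr9, the gut-homing receptor that marks mature pDCs, was 2609 and 1852 CPM and not called.

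NK-like cells (115 control and 179 TAA cells; the class also takes in innate lymphoid cells) had lower conventional NK and killer lectin-like receptor genes in TAA. They held 2 clusters, with 76 and 39 control and 86 and 93 TAA cells. Over all genes 163 of 5842 genes (2.79%) were at least 2-fold higher in the TAA library and 213 (3.65%) at least 2-fold lower; with trimmed-mean scaling the counts were 237 higher and 122 lower, which turns the balance toward higher genes. Conventional NK genes had 0 of the 14 members at least 2-fold higher, 7 at least 2-fold lower and a median log2 ratio of -0.92: Zeb2, a factor of terminal maturation, was 515 and 75.5 CPM, 6.83-fold lower (5.23 to 9.004), with a log2 ratio of -1.71 under marker-score classes in place of -2.62. S1pr5, which guides NK cells out of tissue, was 113 and 13.4 CPM, 8.38-fold lower (4.499 to 16.8). The cytotoxic effector list had 2 of the 18 measured of 20 members at least 2-fold higher, 4 at least 2-fold lower and a median log2 ratio of -0.48. Its member Gzmb, granzyme B, was 1669.7 and 467 CPM, 3.57-fold lower (3.18 to 4.02). Killer lectin-like receptors had 0 of the 17 measured of 20 members at least 2-fold higher, 6 at least 2-fold lower and a median log2 ratio of -0.78, with Klra8, an activating Ly49 receptor with close family copies, at 749 and 106 CPM, 7.04-fold lower (5.63 to 8.86). With each cluster at the same weight in both libraries the medians were -0.56 and -0.58. Prdm1 (Blimp-1), also of terminal maturation, was 95.3 and 14.5 CPM. On the higher side, Pmepa1 was 12.99 and 188 CPM, 14.5-fold higher (6.53 to 39.98). Tgfb1 was 188 and 696 CPM, 3.69-fold higher (2.95 to 4.67), and the SMAD corepressor Skil 152 and 430.1 CPM. Nrarp, a feedback inhibitor of Notch, was 25.99 and 251 CPM, 9.67-fold higher (5.43 to 18.97), and Ramp1, a subunit of the CGRP receptor, had 0 and 49 UMIs and was at least 7.797-fold higher. Genes of type 1 innate lymphoid cells had 2 of the 15 members at least 2-fold higher, 1 at least 2-fold lower and a median log2 ratio of 0.49; the chemokine Xcl1 was 916 and 2133 CPM and Cd160 269 and 88.9 CPM. Ribosomal protein transcripts made up 14.4% and 22.8% of UMIs in this class.

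In T cell-like cells (279 control and 781 TAA cells in 6 clusters, the largest with 167, 52 and 39 control and 251, 219 and 88 TAA cells) effector genes were higher and naive genes lower in TAA, and both differences were smaller once clusters had the same weight in both libraries. Over all genes 89 of 9375 genes (0.949%) were at least 2-fold higher in the TAA library and 105 (1.12%) at least 2-fold lower. Pdcd1, the inhibitory receptor PD-1, was 11.8 and 54.1 CPM, 4.58-fold higher (2.76 to 8.16). Rgs1, a brake on chemokine receptor signals, was 399 and 1215 CPM, and Ier5l 28.1 and 123 CPM. Over the 3 clusters that had at least 20 cells in both libraries, each at the same weight in both, their log2 ratios were 0.30, 0.78 and 0.34, in place of 1.56, 1.58 and 1.80. Naive T cell genes had 0 of the 15 members at least 2-fold higher, 6 at least 2-fold lower and a median log2 ratio of -0.73, and under common weights a median of -0.24; Tcf7, a factor of naive and memory cells, was 650.2 and 285 CPM. Cytotoxic genes had 6 of the 19 measured of 20 members at least 2-fold higher and 0 at least 2-fold lower. Their median log2 ratio was 0.86, against 0.24 under common weights and 0.065 with classes from marker scores. Pmepa1 kept its direction, with 37.7 and 154 CPM, 4.09-fold higher (3.07 to 5.55), and a log2 ratio of 1.61 under common weights. Hspa1a and Hspa1b were 366 and 120.5 CPM and 501 and 164 CPM, both lower, and Slc15a2 had 106 and 0 UMIs, at least 105-fold lower. Pik3ip1, an inhibitor of PI3 kinase in resting cells, was 123 and 37.01 CPM, and its log2 ratio of -1.50 was -0.92 under common weights.

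B cell-like cells (891 control and 1351 TAA cells) had fewer called genes than any other class relative to those measured, and most were lower. Over all genes 15 of 9988 genes (0.15%) were at least 2-fold higher in the TAA library and 125 (1.25%) at least 2-fold lower; with trimmed-mean scaling the counts were 27 higher and 97 lower. They held 3 clusters, with 766, 46 and 79 control and 720, 593 and 38 TAA cells. Rbm3, a cold-induced RNA-binding protein, was 334 and 814 CPM, 2.44-fold higher (2.27 to 2.62), and the tubulin genes Tubb4b and Tuba4a 47.97 and 128 CPM and 28.1 and 64.4 CPM, the latter with a log2 ratio of 0.97, just under the limit; Asph, a hydroxylase, was 31.2 and 71.5 CPM, also just under it. Cxcr4 was 1391 and 335 CPM, 4.15-fold lower (3.92 to 4.397), and Zfp36l2, which targets messenger RNA for decay, 991 and 239 CPM, 4.14-fold lower (3.87 to 4.44). The activation list had 0 of the 17 measured of 19 members at least 2-fold higher, 3 at least 2-fold lower and a median log2 ratio of -0.48: Myc was 223 and 73.1 CPM, 3.05-fold lower (2.68 to 3.47), Egr3 222 and 96.2 CPM and Cd83 978 and 551 CPM. Subset genes had 0 called in either direction, with Cr2, the complement receptor high on marginal zone cells, at 163 and 76.9 CPM. MHC class II genes were 23022 and 28266 CPM in sum, with none of 16 called. Ribosomal protein transcripts made up 20.8% and 27.99% of UMIs.

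Prostanoid genes, the targets of celecoxib among them, had 3 of 17 measured members higher and 0 lower in monocyte/macrophage-like cells, 2 of 13 higher in endothelial-like cells and 2 of 16 lower in Kupffer-like cells. Ptgs2 was called in cDC2-like cells, given above, and in T cell-like cells, where it was 88.7 and 9.93 CPM and under 10% of its level in another class. In monocyte/macrophage-like cells it was 187 and 235 CPM and in Kupffer-like cells 12.7 and 15.9 CPM, neither called. Ptgs1 was 424 and 274 CPM in endothelial-like and 632 and 648 CPM in Kupffer-like cells, neither called. Ptgis, the prostacyclin synthase, was 88.8 and 12.3 CPM in Kupffer-like cells, 7.22-fold lower (4.21 to 13.1). Endothelial transcripts in Kupffer-like cells summed to 2394 and 592 CPM, and their part in the Ptgis value was not tested.

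No cluster was named for stellate cells or fibroblasts, so their transcripts were read over all kept cells of a library, where fewer cells of a type and less RNA per cell cannot be told apart. Collagen transcripts were near 0 in both libraries: Col1a1 was 0.486 and 0.444 CPM, Col3a1 1.62 and 2.39 CPM and Col1a2 1.18 and 0.317 CPM, the last lower in TAA. The transcripts read differed in direction. Lrat, which stores retinol as esters in quiescent stellate cells, was 7.05 and 2.15 CPM, and Colec11, a collectin, 4.82 and 0.7603 CPM, both lower in TAA. Acta2, the smooth muscle actin of contractile cells, was 1.297 and 3.32 CPM, 2.56-fold higher (1.74 to 3.87). Timp1, an inhibitor of matrix proteases, was 0.527 and 2.09 CPM, 3.97-fold higher (2.22 to 7.72). Rgs5, a pericyte gene, was 13.98 and 85.5 CPM, 6.11-fold higher (5.48 to 6.84). Of other transcripts of the same list, Reln was 3.85 and 10.2 CPM, Pdgfrb 0.608 and 0.634 CPM and Des 1.09 and 0.507 CPM. Which cells the Rgs5 transcripts came from was not tested. The matrix proteoglycans Dcn and Bgn were 36.1 and 4.56 CPM and 364 and 36.9 CPM, both lower in TAA. The endothelial-like share was 10.6 times lower, and its part in these whole-library values was not tested. Dcn is among the leading genes of the shared endothelial-like cluster, which held 85 control and 223 TAA cells. The levels of fibrosis in these livers cannot be read from this suspension, which held few such cells from either mouse.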

How the data were processed

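Single-cell UMI counts per gene and barcode were taken from the matrices as deposited by the authors, 1 per library. Cell Ranger 3.1.0 and build mm10 are named in the submitters' processing notes; settings for calling cells and the annotation are not given in the sources used here. All 55450 gene identifiers occur in GENCODE M21, and 109 symbols repeat an earlier one. The deposited tables of normalized expression were not used. Barcodes held 26603317 UMIs in the control and 48419305 in the TAA library; 117 of 6583 and 210 of 6915 barcodes had under 200 genes and 678 and 193 more than 20% mitochondrial UMIs. Doublets were called with Scrublet in Scanpy 1.11.5 (expected rate 5%) and removed, 122 control and 52 TAA barcodes. The cells of all 4 libraries were clustered together (2000 variable genes, 30 principal components, 20 neighbours, leidenalg 0.10.2 at resolution 1, and again within mixed clusters of at least 60 cells at 0.5), with Python 3.11.15 and SciPy 1.17.1. Clusters were named from 20 marker sets, and 10 of 43 stayed unnamed.

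UMIs were summed per class and library. Ratio intervals are exact binomial ones, and a count of 0 was set to a limit of 3 UMIs per library. Trimmed-mean factors came from edgeR 4.0.16 in R 4.3.3. The ratio script was tested on simulated data. The genes named are, per class, the 4 highest and 4 lowest by the interval bound nearest to no difference, among genes with at least 50 CPM in the higher library, without mitochondrial, ribosomal, hemoglobin, immunoglobulin, hepatocyte and erythroid genes, uncharacterised models and genes under 10% of their level in another class. Across classes the 6 genes called in most classes each way were added, and of each of 51 gene lists the 2 largest differences each way and any member whose role is described; a few genes are not reported here. The classes, members and lists were chosen with earlier results of these data known.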

Additional observations from a re-analysis of the deposited data

Results flagged for a closer look

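Named genes that were at least 2-fold higher in TAA in 1 class and at least 2-fold lower in another are given here, each with the gap between its log2 ratios in those classes. None of these gaps was tested, because each class had 1 library a side, and CPM pairs give control first. Chaperone genes made up 3 of the 9. Hspa1a, an inducible Hsp70, was 10.6 and 126 CPM in hepatocyte-like cells and 259.7 and 71.5 CPM in B cell-like cells, a gap of 4.449. Hspa1b, its near copy, stood at 67.2 and 174 CPM in hepatocyte-like cells and at 458 and 68.9 CPM in B cell-like cells, and the log2 ratios lay 3.824 apart; with clusters at the same weight in both libraries the B cell-like log2 ratio of Hspa1b was -1.24 in place of -2.57. The level of Hspb1, a small heat shock protein, was 70.7 and 249 CPM in hepatocyte-like cells, against 53.9 and 9.67 CPM in endothelial-like cells, with a gap of 3.382. Enzymes and transporters followed. Rnase4, a secreted ribonuclease, stood at 120.2 and 435 CPM in hepatocyte-like cells and at 161 and 35.1 CPM in endothelial-like cells, and the log2 ratios lay 3.695 apart. The level of Slc12a2, an ion cotransporter, was 32.6 and 96.9 CPM in cholangiocyte-like cells, against 71.7 and 3.76 CPM in cDC2-like cells, with a gap of 3.898. Cd36, a fatty acid and scavenger receptor, was 389 and 1317 CPM in endothelial-like cells and 58.8 and 10.3 CPM in cholangiocyte-like cells, a gap of 3.493. The rest were regulators and a chemokine receptor. Cxcr4 stood at 71.03 and 193 CPM in Kupffer-like cells and at 1391 and 335 CPM in B cell-like cells, and the log2 ratios lay 3.347 apart. The level of Prdm1, the transcription factor Blimp-1, was 48.2 and 137 CPM in Kupffer-like cells, against 95.3 and 14.5 CPM in NK-like cells, with a gap of 3.439. Nr4a1, an immediate early nuclear receptor, stood at 55.2 and 137 CPM in cholangiocyte-like cells and at 1737 and 692 CPM in neutrophil-like cells, and the log2 ratios lay 2.487 apart. The hepatocyte-like and Kupffer-like values rest on cells that differed in depth between the libraries, as given above, and the part of depth was not tested for these genes.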

How the results depend on the processing

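No paired analysis was possible because each group had 1 mouse and the labels give no replicate numbers. Among leukocytes alone, the share ratio of TAA over control was 0.147 in Kupffer-like, 2.61 in monocyte/macrophage-like, 1.86 in neutrophil-like, 1.19 in T cell-like, 1.86 in cDC2-like and 1.13 in pDC-like cells, and it fell below 1 in B cell-like (0.645) and NK-like (0.662) cells. With classes from marker scores the Kupffer-like ratio was 0.4597, with doublets kept as well 0.4501, and without a mitochondrial limit 0.415 in Kupffer-like, 1.53 in B cell-like, 6.52 in monocyte/macrophage-like and 4.46 in neutrophil-like cells. The number of genes at least 2-fold apart depended on the CPM added: with 1 CPM it was 562 in B cell-like, 988 in cholangiocyte-like, 1254 in endothelial-like, 1227 in Kupffer-like, 1758 in monocyte/macrophage-like, 670 in NK-like, 707 in neutrophil-like, 735 in T cell-like, 1026 in cDC2-like and 593 in pDC-like cells, against 140 in B cell-like, 303 in cholangiocyte-like, 367 in endothelial-like, 727 in Kupffer-like, 555 in monocyte/macrophage-like, 376 in NK-like, 279 in neutrophil-like, 194 in T cell-like, 399 in cDC2-like and 279 in pDC-like cells with 10 CPM. With at least 100 UMIs per gene, so that fewer genes were measured, it was 334 in hepatocyte-like, 386 in Kupffer-like, 142 in NK-like, 165 in neutrophil-like, 249 in cDC2-like and 97 in pDC-like cells. With each cell thinned to 1500 UMIs, so that fewer genes reached 30 UMIs, it was 333 in hepatocyte-like, 418 in Kupffer-like, 240 in NK-like and 137 in pDC-like cells, against 887 in hepatocyte-like cells at full depth. With clusters at the same weight in both libraries it was 742 in endothelial-like, 271 in monocyte/macrophage-like and 119 in T cell-like cells, and 4 values described above changed sign: the MHC class II median in monocyte/macrophage-like cells (-0.19), the cell cycle median (-1.34) and the sinusoidal receptor median (0.72) in endothelial-like cells, and Ptgs1 in monocyte/macrophage-like cells (-0.081). Ccl17 in monocyte/macrophage-like cells changed sign with classes from marker scores (0.061). The cause of these changes was not tested. Of the list medians under all alternatives, 967 stayed on their side of 1.5-fold in size, 27 dropped below it and 49 passed it. Of the log2 ratios of named genes, 493 stayed on their side of 2-fold, 9 dropped below it and 6 passed it. Only cells with at least 2000 UMIs was an alternative chosen after seeing the data. Among the compared classes, depth per cell in the control library was lowest in hepatocyte-like and Kupffer-like cells. Summed UMIs, from which levels were read, were lowest in control hepatocyte-like (282776), pDC-like (410111) and NK-like (461767) cells, against 788369 in Kupffer-like cells.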

Other observations

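Genes of lipid and matrix handling not described above are given here for the macrophage classes, where several were higher in TAA. In monocyte/macrophage-like cells the cholesterol and lipid list had 6 of the 19 measured of 20 members at least 2-fold higher, 0 at least 2-fold lower and a median log2 ratio of 0.17. Apoe, the lipoprotein that carries cholesterol out of cells, was 4411 and 26668 CPM, 6.05-fold higher (5.89 to 6.21), and Abca1, the pump that loads it, 27.98 and 216 CPM. Fabp4 and Pparg, both of lipid storage, stood on the other side at 119.9 and 57.3 CPM and 67.96 and 30.4 CPM. Fabp4 is also among the leading genes of an endothelial-like cluster. The summed level of 10 endothelial transcripts in these cells was 405 and 99.0 CPM, and their part in the Fabp4 value was not tested. With clusters at the same weight in both libraries the median of the cholesterol and lipid list was 0.52. Apoe, and C3ar1 given below, are among the leading genes of the monocyte/macrophage-like cluster that held 30 control and 647 TAA cells. The part of that cluster's share in their class levels was not tested. In Kupffer-like cells Apoe was 8113 and 16400.3 CPM and Cd36 165 and 433 CPM. Matrix remodelling genes in Kupffer-like cells had 4 of the 12 measured of 21 members at least 2-fold higher, 1 at least 2-fold lower and a median log2 ratio of 0.48, with Mmp13, a collagenase, at 6.34 and 73.04 CPM. Cx3cr1, the receptor for CX3CL1, was 16.5 and 121 CPM in Kupffer-like cells, and C3ar1, the receptor for a complement peptide, 30.4 and 306 CPM in monocyte/macrophage-like cells.

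Antigen presentation and secretory stress genes were also read in cholangiocyte-like and endothelial-like cells. In cholangiocyte-like cells Tap1, the peptide transporter for MHC class I, was 28.9 and 78.1 CPM and the immunoproteasome subunit Psmb8 123 and 250.1 CPM, with 1 of 18 class I genes called and a median log2 ratio of 0.49. In endothelial-like cells the endoplasmic reticulum and integrated stress list had 1 of the 17 measured of 18 members at least 2-fold higher, 4 at least 2-fold lower and a median log2 ratio of -0.50: Xbp1, a factor of the unfolded protein response, was 315 and 109 CPM and Herpud1, of protein disposal, 278 and 115 CPM, while Ppp1r15a, a phosphatase subunit that ends the stress arrest of translation, was 359 and 913 CPM. Within the shared endothelial-like cluster the stress list had 1 of 15 measured members at least 2-fold higher, 0 at least 2-fold lower and a median log2 ratio of -0.19.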
